A study of Mus musculus with 8 samples.

Results

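The collagen genes of the mouse were compared between the fetal ductus arteriosus, a vessel that lets fetal blood bypass the lungs and shuts soon after birth, and the aorta. A gene was taken as a collagen where a probe set of the Affymetrix array named only that gene and its symbol had the form Col, a number, a, and a number. The rule found 82 probe sets for 42 of the 18193 genes measured, of which 15 had 1 probe set and 27 had several. Each gene was represented by its probe set of highest mean signal. Col6a6 and Col28a1 were not named in the annotation used and were not analysed here.

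Both tissues came from untreated fetal mice on day 19 of gestation. The labels give the strain as CD88 and the animals as CD88 wild type, without saying more of the background. Each array held total RNA of 1 pool, made of the vessel segments of up to 10 pups of a single pregnant female, with 4 arrays of aorta and 4 of ductus arteriosus labelled as biological replicates. The spread between arrays is therefore a spread between litter pools, and single pups cannot be seen. In such whole vessel segments, fewer cells of a type and less RNA per cell cannot be told apart.

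Collagens are extracellular proteins built from chains wound into a helix, and they give the vessel wall its tensile strength. Fibrillar collagens form the cables of the wall, FACIT collagens (fibril-associated collagens with interrupted helices) sit on those cables, and type IV collagen forms the sheet of basement membranes under endothelium, around smooth muscle cells and under mesothelium. Type VIII collagen is a short-chain collagen that forms open networks and is known from blood vessels and from the membrane under the corneal endothelium. Smooth muscle cells, fibroblasts, endothelial cells and mesothelial cells each make a different set of chains.

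The collagens that rose in the ductus were the type VIII chains Col8a1 and Col8a2, the FACIT collagen Col12a1 and the transmembrane collagen Col25a1. Those that fell were the basement membrane chains Col4a3, Col4a4, Col4a6 and Col15a1 and the FACIT collagen Col22a1. Here a call means an adjusted p under 0.05 in limma, a linear model fitted to all genes. In all, 4 of the 42 were called higher in the ductus, against 1.80% of all genes, and 5 lower, against 2.06%. The counts of calls in classes and marker lists below are to be read beside these shares. The median difference, ductus minus aorta on the log2 scale, was -0.07 over the 42 and -0.03 over all genes, and 19 of the 42 lay above 0. In 12 of the 42 the values of the tissues did not overlap, against 11.3% of all genes, and 3 of these (Col5a2, Col11a1 and Col6a3) were not called. An unadjusted p under 0.05 was found for 17 of the 42, against 16.1% of all genes, the share beside which such counts in single lists are to be read.

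**Figure D1:**
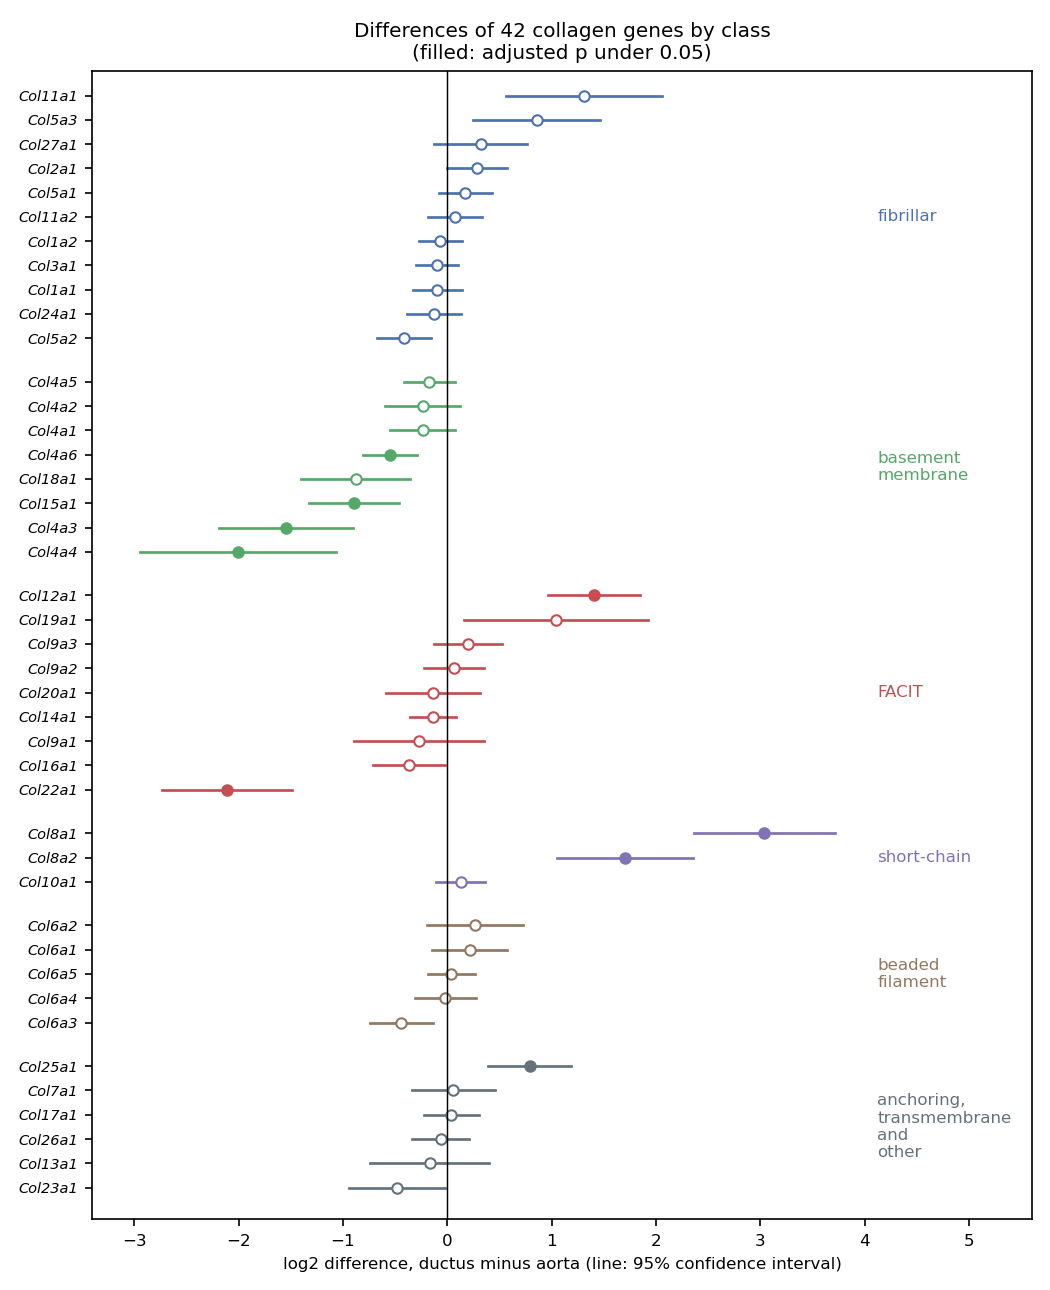
Difference of each of the 42 collagen genes, ductus minus aorta on the log2 scale, by collagen class, with 95% confidence intervals from limma as lines and called genes as filled points. All 8 basement membrane chains lie below 0 and all 3 short-chain collagens above 0, while the fibrillar chains lie between -0.42 and 1.31 with 0 called.

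The short-chain class held 3 genes, and 2 of them rose, with a median difference of 1.70. Col8a1 encodes the alpha 1 chain of type VIII collagen. Its log2 levels were 5.96, 5.25, 4.35 and 5.65 on aorta arrays 1 to 4 and 8.56, 8.19, 8.14 and 8.47 on ductus arrays 1 to 4. The lowest ductus array stood 2 log2 units or more above the highest aorta array, and the aorta arrays spread more widely (SD 0.70) than the ductus arrays (SD 0.21). The difference was 3.04 ± 0.30 (SE), or 8.21-fold, with an adjusted p of 0.000573. Col8a2, the alpha 2 chain, was measured by 1 probe set, at 5.92, 4.81, 4.33 and 5.28 in the aorta and 6.77, 6.84, 6.56 and 6.97 in the ductus. These values did not overlap either, and the aorta arrays ran in the order 1, 4, 2, 3 from high to low for both chains. Col8a2 differed by 1.70 ± 0.29, or 3.25-fold (adjusted p = 0.0111). Both chains were called in all 8 fits that left out an array, with adjusted p of at most 0.00357 for Col8a1 and 0.0423 for Col8a2. Col10a1, the type X chain of growth plate cartilage, had means of 2.53 and 2.66, below the first quartile of every array in both tissues, and it is not shown to be above background.

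Because both type VIII chains were higher in the ductus, the bases before their annotated starts are shown, with that of Col4a4, whose difference ran the other way. Each run holds the 250 bases upstream of the start in the RefSeq annotation of GRCm38.p6, 5′ to 3′ on the strand of the gene. Capitals mark GC boxes, searched as GGGCGG on both strands. The Col8a1 window lies at chr16:57754738-57754987 on the minus strand, that of Col8a2 at chr4:126286544-126286793 on the plus strand, and that of Col4a4 at chr1:82586850-82587099 on the minus strand.
Col8a1: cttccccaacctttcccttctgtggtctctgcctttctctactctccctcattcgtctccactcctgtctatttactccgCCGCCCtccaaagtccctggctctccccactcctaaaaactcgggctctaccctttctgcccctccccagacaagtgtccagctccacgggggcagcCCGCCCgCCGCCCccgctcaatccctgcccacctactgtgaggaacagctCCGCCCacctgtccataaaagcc
Col8a2: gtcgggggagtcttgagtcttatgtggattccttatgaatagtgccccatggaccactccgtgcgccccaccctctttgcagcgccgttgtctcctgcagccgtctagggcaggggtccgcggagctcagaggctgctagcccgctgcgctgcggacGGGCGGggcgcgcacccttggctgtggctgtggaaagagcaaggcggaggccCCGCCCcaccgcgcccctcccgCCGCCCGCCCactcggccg
Col4a4: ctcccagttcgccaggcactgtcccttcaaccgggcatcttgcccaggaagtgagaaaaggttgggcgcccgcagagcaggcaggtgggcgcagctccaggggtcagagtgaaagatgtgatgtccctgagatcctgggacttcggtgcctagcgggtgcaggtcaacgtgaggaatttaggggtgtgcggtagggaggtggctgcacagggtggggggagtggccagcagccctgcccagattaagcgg

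The windows of Col8a1 and Col8a2 held 4 GC boxes each, of which 2 in Col8a2 overlap. At least 4 GC boxes were found in 4.09% of all 32851 windows and in 2 of the 36 collagen windows, those of the type VIII chains, a count chosen after the values were seen. A GC box was present in 58.3% of collagen windows and 32.7% of all windows. The other motifs were also searched on both strands. TATAAA was in 13.9% of collagen and 12.4% of all windows, CCAAT in 36.1% and 33.8%, the AP-2 motif GCCNNNGGC in 16.7% and 13.7%, and the CArG box of serum response factor in 2.8% and 1.5%. The Col4a4 window held none of the 5 motifs, and the start of Col4a3, which runs the other way, lies 72 bases from that of Col4a4, inside the same window. Of the 42 collagens, 33 had a window. These matches are descriptions of letters, and no test was made on them.

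**Figure D2:**
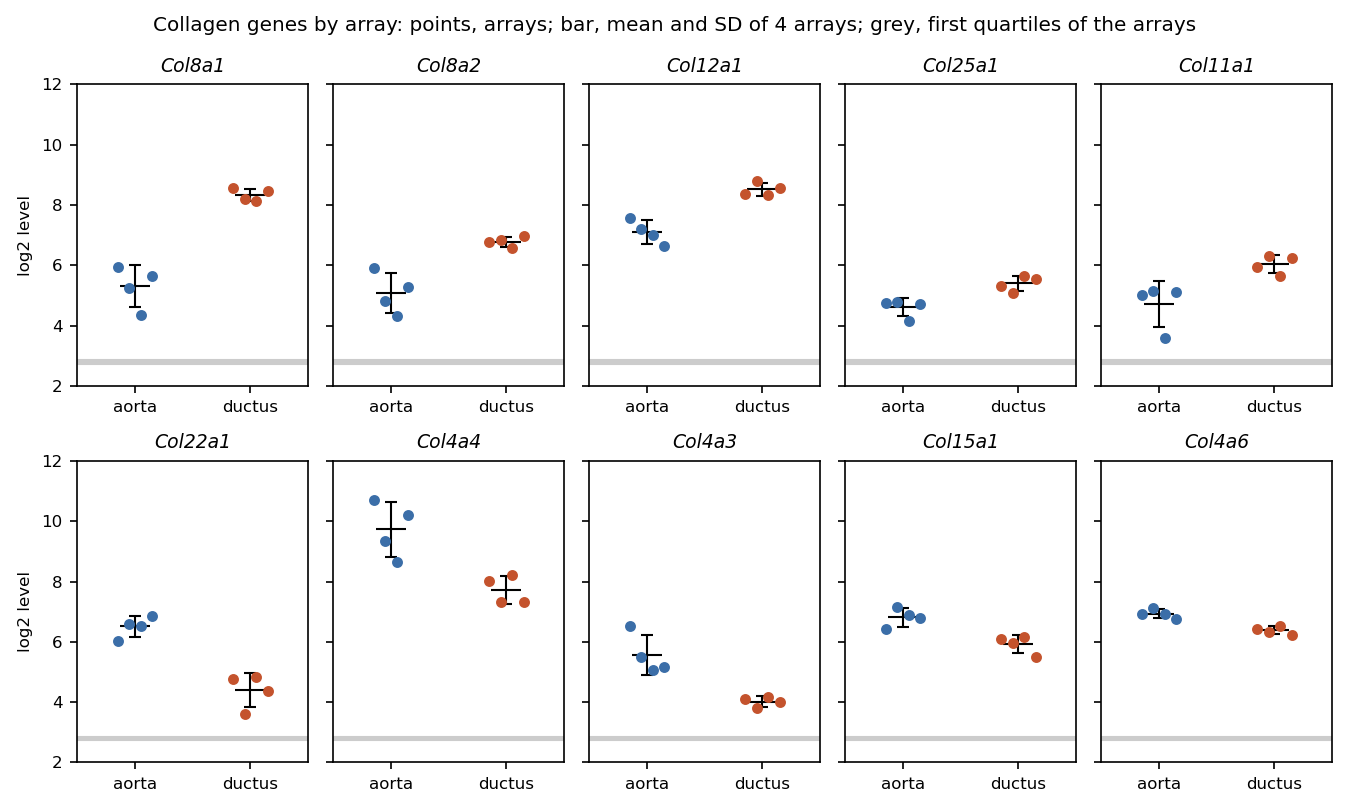
Log2 levels of the 9 called collagens and of Col11a1 in aorta and ductus: points are arrays, bars the mean and SD of 4 arrays, and the grey band the first quartiles of the arrays. In each of these genes the ductus and aorta values do not overlap, and the means of Col8a1 are 5.30 and 8.34.

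Among the 9 FACIT collagens 1 rose and 1 fell, with a median difference of -0.14. Col12a1, which coats type I fibrils in load-bearing tissue, read 7.58, 7.22, 6.99 and 6.66 in the aorta and 8.37, 8.79, 8.34 and 8.58 in the ductus. All ductus arrays lay above all aorta arrays, and the call held in all 8 fits without an array (adjusted p of at most 0.0169). The difference was 1.41 ± 0.20, or 2.65-fold (adjusted p = 0.00375). Col22a1, known from junctions between muscle and tendon, went the other way, with 6.04, 6.6, 6.53 and 6.87 in the aorta and 4.78, 3.61, 4.82 and 4.37 in the ductus. It fell by 2.11 ± 0.28 on the log2 scale, or 4.33-fold (adjusted p = 0.00266), and also kept its call in all 8 such fits (at most 0.0122). Col14a1, another partner of type I fibrils, had means of 10.31 and 10.18, a difference of -0.14 ± 0.10 (adjusted p = 0.558). The cartilage chains Col9a1, Col9a2 and Col9a3, together with Col16a1 and Col20a1, differed by -0.37 to 0.20 and were not called. Col19a1 differed by 1.04 ± 0.39 (adjusted p = 0.221), and by 1.41 without aorta replicate 1, where limma called it (adjusted p = 0.0423).

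In the basement membrane class 4 of 8 chains fell and 4 did not pass the test, against 2.06% of all genes called lower. All 8 had differences below 0, with a median of -0.71, while 8001 of the 18193 genes lay above 0 and the median over all genes was -0.03. Type IV collagen is assembled from 6 chains in fixed partnerships: Col4a1 with Col4a2 in nearly all basement membranes, Col4a3 and Col4a4 with Col4a5 in kidney, lung and a few other sites, and Col4a5 with Col4a6 around smooth muscle and some epithelia.

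Col4a4 read 10.71, 9.34, 8.66 and 10.21 in the aorta and 8.03, 7.33, 8.22 and 7.32 in the ductus, so the lowest aorta array stood above the highest ductus array. It fell by 2.00 ± 0.42, or 4.01-fold (adjusted p = 0.0294). Its partner Col4a3 read 6.52, 5.51, 5.05 and 5.18 in the aorta and 4.10, 3.79, 4.18 and 4.00 in the ductus, where the arrays lay close together (SD 0.17, against 0.66 in the aorta). Col4a3 fell by 1.55 ± 0.29, or 2.92-fold (adjusted p = 0.0166). Col4a6 read 6.94, 7.12, 6.93 and 6.76 in the aorta and 6.43, 6.33, 6.54 and 6.24 in the ductus, a narrow but complete separation of 0.55 ± 0.12 or 1.47-fold (adjusted p = 0.0307). These 3 calls did not hold in every fit that left out an array, while the differences stayed below 0. In those fits they ran from -2.36 to -1.68 for Col4a4, -1.72 to -1.23 for Col4a3 and -0.61 to -0.49 for Col4a6. The Col4a4 call held only without aorta replicate 3 or ductus replicate 3 among the 8 fits that left out an array (adjusted p up to 0.0913), and that of Col4a6 only without aorta replicate 4 or ductus replicate 3 (up to 0.0941). The Col4a6 call was also lost as the mean over its probe sets (0.0525) and under a trended and robust prior (0.0613). The Col4a3 call was lost without aorta replicate 2, ductus replicate 2 or ductus replicate 4 (up to 0.0529).

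The 3 remaining type IV chains were not called. Col4a1, the general basement membrane chain, read 10.93, 11.49, 11.35 and 11.27 in the aorta and 10.95, 11.04, 11.21 and 10.89 in the ductus. Its partner Col4a2 read 10.38, 11.00, 10.63 and 10.82 and then 10.43, 10.35, 10.78 and 10.33. The ranges of the tissues overlapped for both. The differences were -0.24 ± 0.14 for Col4a1 (95% interval -0.55 to 0.08) and -0.23 ± 0.16 for Col4a2 (-0.59 to 0.12), which exclude a fall of the size fitted for Col4a3 or Col4a4. The other Col4a1 probe set gave -0.37 ± 0.15 (-0.70 to -0.04), with overlap between tissues. It was not called (adjusted p = 0.298 over all probe sets). Col4a5 differed by -0.17 ± 0.11 (-0.41 to 0.07, adjusted p = 0.498). Its other probe set gave -0.56 ± 0.14 without overlap between tissues and was not called (adjusted p = 0.0776 over all probe sets).

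**Figure D3:**
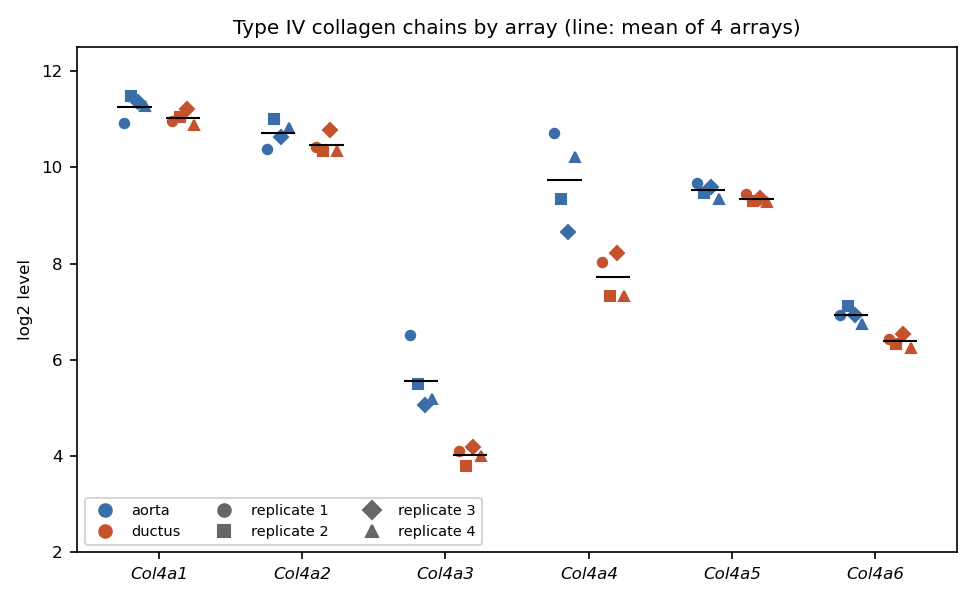
Log2 levels of the 6 type IV collagen chains on each array of aorta and ductus, with a line at the mean of the 4 arrays and a marker shape for each replicate number. Col4a3 and Col4a4 are set apart between tissues with wide spread in the aorta, Col4a6 by a small step, and Col4a1, Col4a2 and Col4a5 overlap.

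Mouse type IV chains lie in neighbouring pairs on the chromosomes, and the pairs can be set side by side. Col4a4 and Col4a3 on chromosome 1 differed by -2.00 and -1.55, Col4a1 and Col4a2 on chromosome 8 by -0.24 and -0.23, and Col4a6 and Col4a5 on chromosome X by -0.55 and -0.17. The other neighbouring collagen pairs, with no protein-coding gene between them, were Col9a1 with Col19a1 (-0.27 and 1.04) and Col3a1 with Col5a2 (-0.09 and -0.42) on chromosome 1, Col6a2 with Col6a1 (0.26 and 0.22) on chromosome 10, and Col6a5 with Col6a4 (0.04 and -0.02) on chromosome 9. Both genes were called in 1 of the 7 pairs, Col4a4 with Col4a3.

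The multiplexins Col15a1 and Col18a1, basement membrane collagens that carry an endostatin-like end piece, were both lower in the ductus by their means. Col15a1 read 6.42, 7.17, 6.88 and 6.79 in the aorta and 6.09, 5.96, 6.16 and 5.49 in the ductus, without overlap. It fell by 0.89 ± 0.19, or 1.86-fold (adjusted p = 0.0334), and the call held only without aorta replicate 1 or ductus replicate 3 among the 8 fits that left out an array (up to 0.0881). Col18a1 had overlapping values, 7.53 to 8.32 in the aorta and 6.66 to 7.63 in the ductus. Its difference of -0.88 ± 0.23 was not called (adjusted p = 0.0777), though limma called it without aorta replicate 3 (0.0459) or ductus replicate 3 (0.0362).

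Mesothelial and endothelial markers also had differences below 0. Of 10 mesothelial markers, 7 were called lower in the ductus, against 2.06% of all genes, and 0 higher, against 1.80%. Their mean log2 level was 8.37, 7.63, 7.09 and 8.04 in the aorta and 6.56, 5.99, 6.45 and 5.93 in the ductus. The summed level of the list ran from 11.13 to 12.38 (log2) in the aorta and from 9.65 to 10.34 in the ductus, and no marker lay below the first quartile on every array. The aorta arrays ran in the same order, 1, 4, 2, 3 from high to low, for this mean and for Col4a4, and also for Col8a1 and Col8a2, which were higher in the ductus. The other called basement membrane chains had other orders: 1, 2, 4, 3 for Col4a3, 2, 1, 3, 4 for Col4a6 and 2, 3, 4, 1 for Col15a1. On the ductus arrays the mesothelial mean ran 1, 3, 2, 4 from high to low, and Col4a4 ran 3, 1, 2, 4. Of 10 endothelial markers, 3 were called lower and 0 higher, to be read beside the same shares of all genes. Their summed levels were 12.43 to 12.88 in the aorta and 11.83 to 12.12 in the ductus, with none below the first quartile. The part of mesothelial or endothelial cells in the collagen differences was not tested.

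The fibrillar collagens, which make the bulk of collagen in a vessel wall, gave no call. None of the 11 genes passed the test in limma, and 3 had an unadjusted p under 0.05 (16.1% of all genes did). The tissues did not overlap in 2 (11.3% of all genes), which is the smallest exact permutation p for 4 against 4 (0.0286, two-sided). The type I chain Col1a1 read 12.66, 12.63, 12.58 and 12.42 in the aorta and 12.33, 12.54, 12.53 and 12.51 in the ductus. Its partner Col1a2 read 12.52, 12.61, 12.53 and 12.49 and then 12.38, 12.48, 12.52 and 12.49. The type III chain Col3a1, the second main fibrillar collagen of arteries, read 12.34, 12.25, 12.29 and 12.35 and then 12.25, 12.25, 12.16 and 12.18. The arrays of the tissues overlapped in each of the 3 genes. Their 95% intervals were -0.33 to 0.14, -0.27 to 0.14 and -0.30 to 0.11, so differences past log2 0.33 in size lie outside all 3. Signals this near the array maximum (13.65 to 13.87) can be compressed, and no saturation value was in the tables used.

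Type V collagen starts and limits the growth of type I fibrils. Its alpha 1 chain Col5a1 read 10.63, 10.81, 10.58 and 10.68 in the aorta and 10.68, 10.75, 11.03 and 10.92 in the ductus, a difference of 0.17 ± 0.11 (adjusted p = 0.524). Col5a2, the alpha 2 chain, read 11.16, 11.24, 10.88 and 11.03 and then 10.57, 10.62, 10.82 and 10.65. All ductus arrays of Col5a2 lay below all aorta arrays, yet the difference of -0.42 ± 0.11 was not called (adjusted p = 0.0881), and its other probe set gave -0.05. Col5a3 differed by 0.86 ± 0.27 (adjusted p = 0.138), and its other probe set lay below every first quartile in both tissues (2.58 and 2.63). Col24a1 and Col27a1, fibrillar collagens known from bone and cartilage, differed by -0.13 and 0.32 and were not called. The other Col27a1 probe set had the opposite sign, at -0.16 ± 0.14, and was not called either.

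Col11a1, the alpha 1 chain of type XI collagen, a minor fibrillar collagen best known from cartilage, had the largest difference of its class. It read 5.03, 5.14, 3.60 and 5.11 in the aorta and 5.94, 6.31, 5.65 and 6.24 in the ductus. Every ductus array was above every aorta array, and aorta replicate 3 stood well below the other aorta arrays. The difference of 1.31 ± 0.33 was not called (adjusted p = 0.0653), but without aorta replicate 3 it was 0.94 and called (0.0203). It was also called in 5 of 9 other settings, with array medians subtracted (0.0421), the most variable probe set by interquartile range (3.28e-05), the mean over probe sets (0.00147), a trended and robust prior (0.0387) or a replicate block (0.0327). The other Col11a1 probe set read 3.19, 2.99, 2.82 and 2.97 in the aorta and 5.17, 5.02, 4.85 and 5.07 in the ductus, a difference of 2.03 ± 0.12 that was called over all probe sets (adjusted p = 3.92e-05). Its aorta values lie close to the first quartiles (2.74 to 2.86), so they are not shown to be above background and the size of the fold is not exact. The cartilage partners Col2a1 and Col11a2 differed by 0.28 ± 0.13 and 0.07 and were not called, with means below every array median. Of 12 cartilage markers, 2 were called higher in the ductus (Chad and Epyc) and 3 lower (Acan, Hapln1 and Cytl1). Their summed level ran from 11.72 to 12.01 in the aorta and 10.15 to 10.74 in the ductus, and Matn1 and Matn3 lay below the highest first quartile on every array. Acan had the highest means of this list, 11.18 in the aorta and 9.48 in the ductus, and so weighs most in the summed level. Chad had means of 3.28 (aorta) and 3.93 (ductus), below every array median. Cnmd, Comp, Ucma, Snorc and Prg4 also had means below every array median in both tissues. The part of cartilage in the Col11a1 values was not tested.

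The type VI collagens form beaded filaments around cells, and none of the 5 measured genes was called by limma, with 1 at an unadjusted p under 0.05. Col6a3, the longest chain, read 9.95, 10.54, 10.40 and 10.22 in the aorta and 9.84, 9.82, 9.93 and 9.75 in the ductus. The tissues did not overlap, but aorta replicate 1 came within reach of the ductus arrays. The difference was -0.44 ± 0.14 (adjusted p = 0.126), and without aorta replicate 1 it was -0.55 and called (0.0462). Its partners pointed the other way: Col6a1 read 10.88, 11.27, 10.92 and 11.09 and then 11.23, 11.17, 11.66 and 10.97, and Col6a2 read 9.64, 10.24, 9.97 and 9.81 and then 10.25, 9.78, 10.69 and 10.00. Both overlapped between tissues, and ductus replicate 3 was the highest array for both. Their differences were 0.22 ± 0.16 (95% interval -0.14 to 0.57) and 0.26 ± 0.20 (-0.20 to 0.72), and 0.08 and 0.09 without ductus replicate 3. Col6a4 and Col6a5 had means below the first quartiles.

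Ductus replicate 3 also stood apart in skeletal muscle genes. The mean log2 level of 10 skeletal muscle markers was 6.13 on that array, against 3.91 to 4.15 on the other ductus arrays and 3.54 to 4.02 on the aorta arrays. None of the 10 was called by limma, and 2 had an unadjusted p under 0.05. The summed level ran from 7.13 to 7.69 in the aorta and from 7.69 to 10.27 in the ductus, and no marker lay below the first quartile on every array. Ductus replicate 3 was also highest for the mean of the airway and lung epithelium markers. That mean was 4.89, against 3.59 to 4.44 on the other ductus arrays and 3.12 to 4.05 in the aorta. The part of these tissues in the collagen values was not tested.

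The abundant chains of the wall can be counted together. Of the 10 chains of types I, III, V and VI and the general type IV pair (Col1a1, Col1a2, Col3a1, Col4a1, Col4a2, Col5a1, Col5a2, Col6a1, Col6a2 and Col6a3), none was called by limma, 2 had an unadjusted p under 0.05, and the same 2 (Col5a2 and Col6a3) did not overlap between tissues. Their largest difference was 0.44 in size. Over all genes, 16.1% had an unadjusted limma p under 0.05 and 11.3% did not overlap between tissues.

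The last class joined anchoring, transmembrane and other collagens, with 1 of 6 called higher and a median difference of -0.01. Col25a1, a transmembrane collagen of neurons, read 4.76, 4.80, 4.16 and 4.72 in the aorta and 5.32, 5.09, 5.64 and 5.54 in the ductus. The tissues did not overlap, with a difference of 0.79 ± 0.18 or 1.73-fold (adjusted p = 0.0391). Among the 8 fits that left out an array, the call held only without ductus replicate 2 (up to 0.115 in the others). The other Col25a1 probe set gave -0.24, and the mean over both probe sets was not called (0.251). When adjusted over all probe sets, the representative one was not called either (adjusted p = 0.0523). Of 6 Schwann cell and nerve markers, 2 were called higher in the ductus (S100b and Cdh19). The aorta mean of Cdh19 was 2.58, below every first quartile, and it is not shown to be above background. Foxd3 lay below the highest first quartile on every array, and the summed level of the list ran from 7.22 to 7.80 in the aorta and 7.60 to 8.16 in the ductus. The part of nerve in the Col25a1 value was not tested. Col23a1, another transmembrane collagen, differed by -0.48 ± 0.20 (adjusted p = 0.289), and by -0.68 without ductus replicate 3, where limma called it (0.0451). Col7a1, the anchoring fibril chain of skin, and Col13a1, Col17a1 and Col26a1 differed by -0.17 to 0.06 and had means below every array median.

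Signal limits what can be read from the weaker members. In 12 of the 42 collagens both tissue means lay below every array median (4.36 to 4.42), and in 6 of these both lay below the highest first quartile (2.86). The values used hold no detection calls, so a missing difference in these genes is not a measured likeness. The other 30 had a mean above every array median in at least 1 tissue.

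The other probe sets of the same genes are a second reading from the same RNA, not a replicate. Over all 82 collagen probe sets, 5 were called higher, against 1.26% of all probe sets, and 7 lower, against 1.20%. Of the 40 that did not represent their gene, 2 were called higher and 2 lower, and 34 had the sign of the representative one. Col8a1 had a further probe set at 0.57 ± 0.15 (adjusted p = 0.0919), with no overlap between tissues, and one that was called higher (0.0237) from an aorta mean of 2.45 to a ductus mean of 3.26. Col4a4 had others at -2.41 ± 0.33 (0.00430) and -1.37 ± 0.31 (0.0516). That of Col4a3 was called lower (0.0137), with means of 3.47 (aorta) and 2.57 (ductus). The aorta mean of the called Col8a1 probe set and the ductus mean of the Col4a3 one lie below every first quartile. Neither is known to exceed background, and neither difference has an exact size. Col22a1 had further probe sets at -1.40 ± 0.34 (0.0712) and -0.09, and Col12a1 one at 0.30 ± 0.17, none of them called. The remaining Col12a1 probe sets had means of 2.43 to 2.64, below every first quartile in both tissues.

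**Figure D4:**
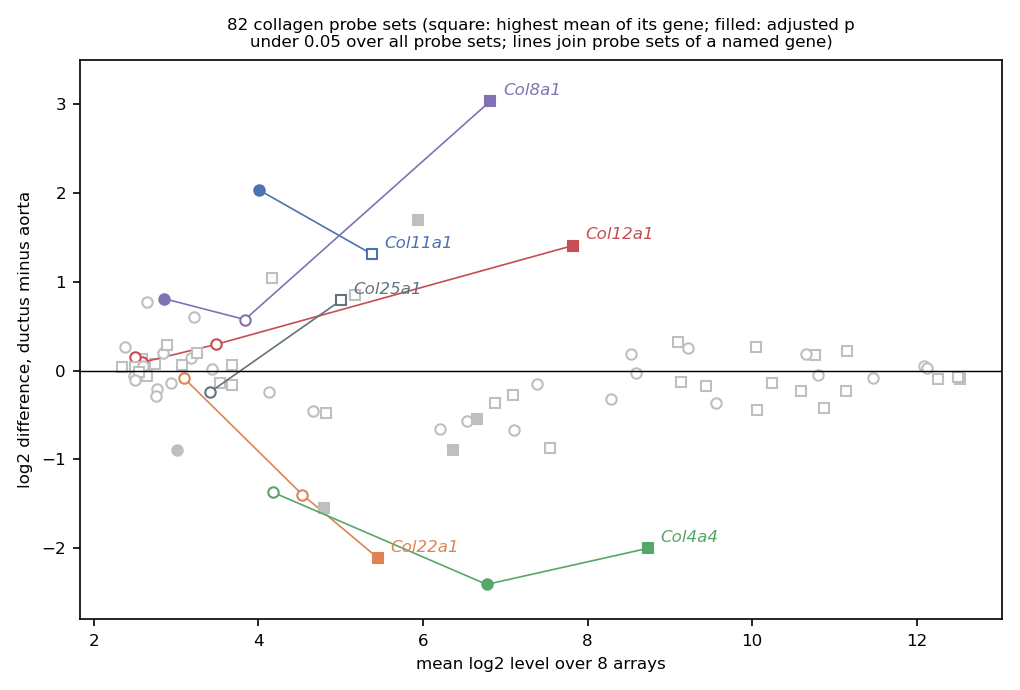
Difference of each of the 82 collagen probe sets, ductus minus aorta on the log2 scale, against its mean log2 level over 8 arrays: squares represent their gene, circles are the others, filled points are called over all probe sets, and lines join the probe sets of a labelled gene. The other probe sets of Col12a1 lie at differences of 0.09 to 0.30 and at low mean levels, and both Col11a1 probe sets lie above 1.

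The genes that make, bind and break down collagen were read from lists ordered by role, 89 of 95 of which were measured. In all, 8 of the 89 were called higher in the ductus, against 1.80% of all genes, and 3 lower, against 2.06%, and the median difference was 0.04. Itga11, Fkbp10, Adamts2, Adamts14, Loxl2 and Mmp15 were not named in the annotation used.

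Inside the cell, chains are hydroxylated, folded and exported. None of 19 modification and folding genes was called by limma, and 6 had an unadjusted p under 0.05, against 16.1% of all genes. The collagen chaperone Serpinh1 differed by 0.15 ± 0.10 (adjusted p = 0.524) and the prolyl hydroxylase subunit P4ha1 by 0.12 ± 0.19 (0.817). Of 12 secretion genes, Creb3l1, a membrane-bound transcription factor of the secretory pathway, fell by 0.93 ± 0.17 or 1.91-fold (adjusted p = 0.0147), from 6.24 to 5.31. That call was lost without aorta replicate 2 (0.0517). The others of this list were not called.

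Outside the cell, end pieces are removed and fibrils are crosslinked. Adamts3, a protease that removes the amino end piece of fibrillar procollagen, rose by 1.20 ± 0.21 or 2.29-fold (adjusted p = 0.0118), from 5.76 to 6.96. The mean over its probe sets was 0.57 and not called (0.0634). It was the 1 called gene of 8 in its list, while Bmp1, which removes the carboxyl end piece, differed by 0.07 ± 0.16 and its enhancer Pcolce by -0.31 ± 0.24. Among 4 crosslinking genes Loxl4, a lysyl oxidase relative, rose by 1.94 ± 0.19 or 3.84-fold (adjusted p = 0.000573). Lox, the main vascular lysyl oxidase, had means of 11.91 and 11.92 and a difference of 0.00 ± 0.09, and Bmp1, Pcolce and Lox were not called.

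Of 21 partners in fibril assembly, 3 rose and 1 fell. The small leucine-rich proteoglycans Ogn and Aspn rose by 0.63 ± 0.12 (1.55-fold, adjusted p = 0.0220) and 0.91 ± 0.18 (1.87-fold, 0.0239), and fibronectin, Fn1, by 0.52 ± 0.10 (1.44-fold, 0.0193). Nid2, which links laminin to type IV collagen in basement membranes, read 8.27, 8.33, 8.27 and 8.17 in the aorta and 7.23, 7.08, 7.04 and 6.93 in the ductus. The replicates of each tissue lay close together, and Nid2 fell by 1.19 ± 0.10 or 2.28-fold (adjusted p = 0.000256), with a call in all 8 fits that left out an array. The call of Ogn held in 3 of those 8 fits (lost without aorta replicates 1, 3 or 4 or ductus replicates 1 or 3, up to 0.0615). Aspn was called in 4 (lost without aorta replicate 1 or ductus replicates 1, 2 or 4, up to 0.0764) and Fn1 in 6 (lost without ductus replicates 1 or 3, up to 0.0610). Unlike Nid2, Nid1 and Hspg2 of the same list were not called. They differed by -0.04 ± 0.10 (adjusted p = 0.903) and 0.07 ± 0.11 (0.811).

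Among 11 cell receptors 2 rose and 1 fell. Adgrg6, an adhesion receptor that binds type IV collagen, read 10.52, 9.66, 9.53 and 9.52 in the aorta and 7.96, 7.66, 7.80 and 8.22 in the ductus. Its tissues were well apart, and it fell by 1.90 ± 0.23 or 3.73-fold (adjusted p = 0.00178) and was called in all 8 fits without an array. The collagen receptor Ddr2 rose by 0.72 ± 0.15 (1.65-fold, adjusted p = 0.0266) and the integrin chain Itga1 by 0.45 ± 0.09 (1.37-fold, 0.0265). Both calls were lost in 7 of the 8 fits, Ddr2 holding only without aorta replicate 3 (up to 0.0798 in the others) and Itga1 likewise (up to 0.0827). The Itga1 call was also lost with array medians subtracted (0.0695) or when its most variable probe set was used (0.0592), and the Ddr2 call as the mean over probe sets (0.0785). Of 14 breakdown genes the membrane-bound collagenase Mmp14 was called and rose by 0.76 ± 0.13 or 1.69-fold (adjusted p = 0.0122), from 6.41 to 7.17.

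**Figure D5:**
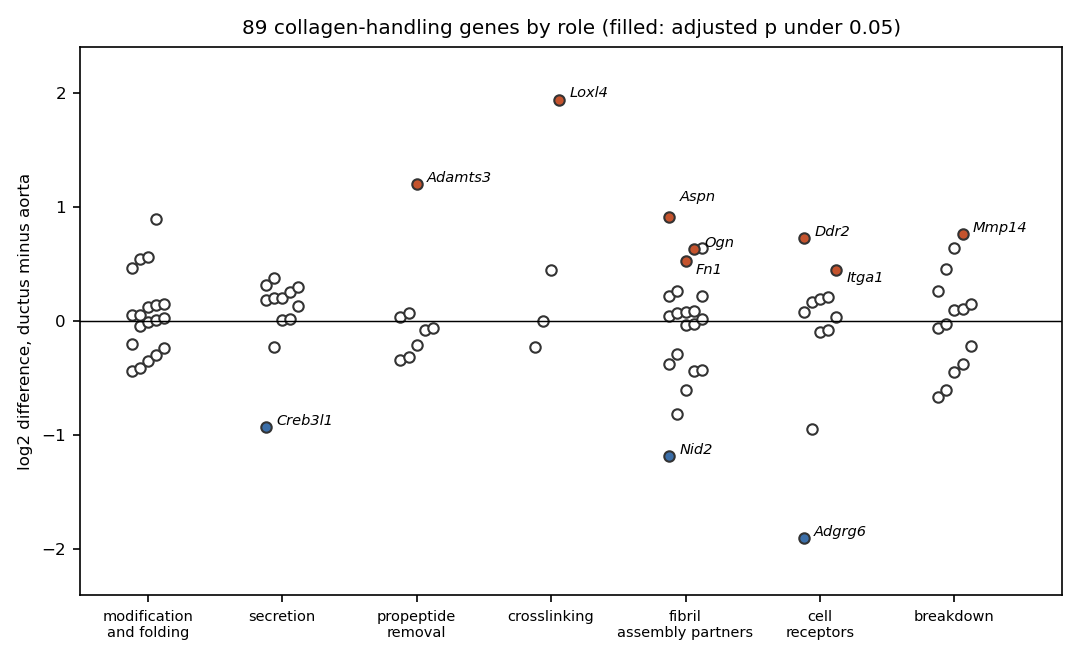
Difference of each measured gene that handles collagen, ductus minus aorta on the log2 scale, in columns by role from folding to breakdown, with called genes filled and labelled and no error drawn. Loxl4 (1.94) and Adgrg6 (-1.90) lie farthest from 0, and the folding genes hold no call.

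The labels of the tissues were read against smooth muscle markers. All 8 were above the first quartile in both tissues, with mean log2 levels of 9.31 to 9.95 in the aorta and 10.05 to 10.50 in the ductus, and 2 were called higher in the ductus and 0 lower. The summed level ran from 13.40 to 13.88 in the aorta and from 14.01 to 14.20 in the ductus. Of 9 fibroblast markers, 1 was called higher (Scara5), with summed levels of 13.27 to 13.38 and 13.20 to 13.27. Their median difference was -0.32, and 3 of the 9 lay above 0. Without overlap, Dpt, Tcf21 and Clec3b were lower in the ductus and Scara5 and Mfap5 higher (11.3% of all genes did not overlap). Bone gave 1 of 5 (Phex) and airway epithelium 1 of 8 (Scgb1a1, with Foxj1 low on every array), both higher in the ductus. The bone marker Alpl was lower without overlap (-0.50) and not called. Thymus (7 markers) and adipocyte (6) lists held no limma call and no unadjusted p under 0.05, with summed levels that varied widely between arrays of both tissues (6.39 to 10.32 and 6.88 to 10.95 for thymus, 11.10 to 12.38 and 10.46 to 12.02 for adipocytes). The part of these tissues in the collagen values was not tested.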

How the data were processed

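Expression in 4 aorta and 4 ductus arteriosus pools was read from 1 deposited table of log2 values, a scale taken from the range of the values. RMA, a robust averaging of the probes of a probe set, and Partek 6.6 are listed in the submitters' processing notes. How the authors combined them is not given in the sources used. The table held 45101 probe sets. Of these, 64 controls were left out, 9160 had no gene in the annotation used, 932 had several symbols, and 34945 had exactly 1. Symbols were updated by gene ID for 34741 and kept for 204.

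Differences, ductus minus aorta, were fitted two-sided in R 4.3.3 by lmFit and eBayes of limma 3.58.1, with no covariate and no low-value filter, adjusted by the Benjamini-Hochberg method over 18193 genes, or over 45037 probe sets where named. A difference carries its standard error and a level its standard deviation (n = 4 each), and precision is limited by the number of arrays. The script was tested on simulated data.

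The collagens, the lists and the rule for named genes were chosen with earlier results of these data known. The rule named each called collagen, 10 abundant chains, the largest difference of a class without calls, called pathway genes and a set of anchors. The values of Col4a5, Col5a3, Col10a1, Col14a1, Col18a1, Col19a1 and Col23a1 were added after they were seen. Same-numbered arrays were not paired in the main fit, since the labels state no pairing. Their deviations from the tissue means correlated at -0.23 to -0.07, which cannot show whether same-numbered pools came from the same litters. Alternatives covered scaling, filters, probe set choice, the prior, array weights, a replicate block, thresholds and leaving out each array. For the named genes they also held an exact permutation test, unadjusted. Promoter windows are RefSeq's, of GRCm38.p6.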

Additional observations from a re-analysis of the deposited data

Results flagged for a closer look

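In the named and collagen genes, 116 groups of 4 arrays were searched for an array standing far from the other 3, which chance gives in about 1 of 20 groups, and 7 values were found. Among collagens, ductus replicate 1 was low for Col1a1 at 12.33, with the others at 12.51 to 12.54. Aorta replicate 3 was low for Col11a1 at 3.60, with the others at 5.03 to 5.14, and for Col25a1 at 4.16, with the others at 4.72 to 4.80. Ductus replicate 3 was high for Col23a1 at 5.20, with the others at 4.37 to 4.42. In the genes that handle collagen, aorta replicate 4 was low for Adamts3 at 5.16 (others 5.91 to 6.01), aorta replicate 1 was high for Adgrg6 at 10.52 (others 9.52 to 9.66), and ductus replicate 2 was low for Ddr2 at 10.48 (others 10.63 to 10.66).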

How the results depend on the processing

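Of the 719 results of the 36 named genes under alternatives, 604 kept their direction and side of the threshold. In 97 a gene no longer passed the limit of the setting, in 11 it newly passed, and 7 changed sign. Those settings included stricter limits on the main fit, where a loss reflects the limit alone. They also included an exact permutation test with unadjusted p under 0.05, which Col5a2, Col11a1 and Col6a3 passed at its smallest p (0.0286) without a limma call. Those that changed sign were not called: P4ha1 (-0.0801 as the mean over probe sets), Lox (-0.052 after quantile normalization and -0.0106 to 0.0248 on leaving out 1 array) and Bmp1 (-0.0594 to 0.1735 on leaving out 1 array). The cause was not tested. At an adjusted p under 0.01, 2 collagens were higher and 1 lower, and with a log2 difference of at least 1, 3 were lower. The replicate block left 2 lower collagens, 208 and 195 genes of all (main counts 328 and 374) and 1 higher pathway gene. It ended the calls of Col4a4 (0.0698), Col4a6 (0.102), Col15a1 (0.0845) and Col25a1 (0.153) and, among pathway genes, of Creb3l1 (0.0734), Adamts3 (0.0584), Ogn (0.111), Aspn (0.103), Fn1 (0.120), Itga1 (0.133), Ddr2 (0.0910) and Mmp14 (0.0801), and Col11a1 was called (0.0327). No array correlated best with its own number. Leaving out 1 array gave 3 to 4 higher and 1 to 7 lower collagens, 233 to 289 higher and 201 to 419 lower genes, and 4 to 8 higher and 2 to 5 lower pathway genes. Over all genes, p under 0.01 gave 170 and 134, and the log2 limit 186 and 202. The higher pathway count fell to 1 and 2 under these limits. The lower pathway count was 7 under both low-value filters and the trended prior, and 5 under quantile normalization, both other probe set choices and array weights.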
